A study of Rattus norvegicus with 9 samples.

Results

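The NR4A and EGR families, with Ier2 and Srf, are transcription factors and a nuclear protein of the early response to a stimulus. Here 8 genes were followed: Nr4a1, Nr4a2, Nr4a3, Egr1, Egr2, Egr3, Ier2 and Srf. They were picked by symbol from the 17145 genes of the deposited tables, and all 8 are listed in both. The choice was made with their levels in these same libraries known, since several of them lay high in one group. Their levels and the differences between groups are therefore a description, given with errors. Where members passing a threshold are counted, the count stands beside the share of all genes and is not evidence for the members.

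NR4A proteins are orphan nuclear receptors that bind DNA and act without a known ligand, so that their amount sets much of their activity. EGR proteins bind GC-rich DNA through zinc fingers and are held in check by the corepressors Nab1 and Nab2. Srf is present before a stimulus. It binds the CArG box, and with ternary complex factors such as Elk1 or with myocardin-related factors it switches on Egr1, Egr2, Ier2 and genes of the actin cytoskeleton. Signals through cyclic AMP act on Nr4a1 through CREB, which binds the cyclic AMP response element (CRE).

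The rats were of the strain Otsuka Long-Evans Tokushima fatty, a model of obesity and diabetes, and total RNA of their ileum was sequenced with ribosomal RNA depleted, 1 month after surgery. All groups share that strain, and the labels give no age. There were 3 samples each of RYGB ileum with FDG increased, RYGB ileum with FDG decreased, and ileum after a sham operation. RYGB, Roux-en-Y gastric bypass, leads food from a small stomach pouch directly into the jejunum. The labels do not spell out FDG, and they do not say whether replicates came from separate animals. Spread between samples may thus be partly technical, and in whole tissue fewer cells of a type and less RNA per cell cannot be told apart.

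Values are FPKM, fragments per length of transcript and per mapped fragments, so levels can be set side by side between genes. One table holds FDG-increased and sham ileum, the other FDG-decreased and FDG-increased ileum. They hold 10 distinct libraries, because 2 FDG-increased libraries stand in both tables under different numbers. The 4 distinct FDG-increased libraries are called A to D. Library A is replicate 1 of the sham table. Library B is replicate 2 of the sham table and replicate 1 of the RYGB table. Library C is replicate 3 of the sham table and replicate 2 of the RYGB table. Library D is replicate 3 of the RYGB table alone. The labels name 3 such samples, so 1 of the 4 has no sample of its own in the labels. The summed FPKM per library ran from 465697 to 864511. Vil1, Cdx2 and the other intestinal epithelial markers found were present in every library, at a summed 2648 to 5502 FPKM over 6 genes. Sham replicate 1 stood apart in the 3 ileal absorptive markers found (Fabp6, Slc10a2 and Slc51a), with a summed 175 FPKM, against 5703 to 24454 FPKM in the other 9 libraries. The same library was the highest in 5 markers of the proximal intestine (Lct, Gata4, Gip, Fabp1 and Rbp2), with a summed 14607 FPKM against 1822 to 9320 FPKM elsewhere. In it the lactase gene Lct stood at 253 FPKM, the factor Gata4 at 59.8 FPKM and the hormone gene Gip at 81.2 FPKM.

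Promoter sequences are shown first, since the choice of members did not use them. The CArG box and the CRE were named above as sites that act on some of these genes. Their matches are therefore a description. RefSeq promoters of build GRCr8 were at hand for 6 of the 8 members, all but Nr4a3 and Egr3. Each sequence below is the 250 bases before the start site, read 5′ to 3′ along the gene, with CArG boxes and CRE cores (TGACG, or CGTCA on the other strand) in capitals.
Egr1, chr18:26736828-26737077, plus strand: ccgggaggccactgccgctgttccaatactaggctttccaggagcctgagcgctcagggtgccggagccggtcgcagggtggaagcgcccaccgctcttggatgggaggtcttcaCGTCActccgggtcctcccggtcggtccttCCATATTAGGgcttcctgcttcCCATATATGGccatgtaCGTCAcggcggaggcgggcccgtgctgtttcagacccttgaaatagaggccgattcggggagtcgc
Egr2, chr20:21054442-21054691, minus strand: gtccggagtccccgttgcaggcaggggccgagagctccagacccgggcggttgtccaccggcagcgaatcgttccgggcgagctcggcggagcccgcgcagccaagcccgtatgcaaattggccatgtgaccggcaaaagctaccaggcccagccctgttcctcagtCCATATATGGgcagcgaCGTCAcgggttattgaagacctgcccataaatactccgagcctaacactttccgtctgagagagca
Srf, chr9:21923826-21924075, plus strand: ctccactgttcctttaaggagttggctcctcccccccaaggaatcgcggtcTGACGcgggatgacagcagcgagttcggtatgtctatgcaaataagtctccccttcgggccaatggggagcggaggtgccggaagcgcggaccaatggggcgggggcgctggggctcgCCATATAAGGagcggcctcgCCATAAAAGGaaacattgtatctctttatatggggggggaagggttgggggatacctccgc
Nr4a1, chr7:134259888-134260137, plus strand: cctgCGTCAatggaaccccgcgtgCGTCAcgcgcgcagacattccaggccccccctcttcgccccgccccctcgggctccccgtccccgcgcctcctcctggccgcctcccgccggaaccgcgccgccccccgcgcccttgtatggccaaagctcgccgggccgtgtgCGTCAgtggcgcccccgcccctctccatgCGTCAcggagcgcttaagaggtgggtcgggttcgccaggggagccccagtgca
Ier2, chr19:40399123-40399372, plus strand: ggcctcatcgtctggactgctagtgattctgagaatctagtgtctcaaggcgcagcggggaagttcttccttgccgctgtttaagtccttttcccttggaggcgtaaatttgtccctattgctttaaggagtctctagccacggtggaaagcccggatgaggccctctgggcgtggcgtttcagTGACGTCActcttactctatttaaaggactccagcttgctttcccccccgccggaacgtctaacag

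A CArG box lay in 3 of these 6 promoters, Egr1, Egr2 and Srf, and in 1.5% of the 33469 rat promoters of the same window. Egr1 and Srf each held 2 of them, which 0.0209% of all promoters did. In Egr1 they were CCATATTAGG at -105 to -96 and CCATATATGG at -83 to -74, counted from the start site. Egr2 carried CCATATATGG at the same distance, -83 to -74. Both genes also had a CRE core at -66 to -62. The Srf boxes, CCATATAAGG at -81 to -72 and CCATAAAAGG at -61 to -52, lie in the promoter of the gene whose own protein binds such boxes.

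The CRE core lay in 6 of 6 promoters, against 18.2% of all. Nr4a1 had 4 of them and no CArG box. Nr4a2, whose promoter is not printed, had 1, at -8 to -4. Ier2 alone held the full CRE, TGACGTCA, at -66 to -59, which contains the core on both strands and is found in 1.59% of all promoters. The EGR site GCGTGGGCG and the monomer site of NR4A receptors, AAAGGTCA, lay in 0 of the 6, and in 0.478% and 1.2% of all promoters. All motifs were searched on both strands. These are matches of letters only.

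All 8 members were higher in each of libraries A, B and C than in any sham library of their table. Across all 10801 genes tested, 10.7% were higher in FDG-increased ileum without overlap between the groups, and 4.44% were lower. With libraries shifted to a common median 7 of 8 members were higher without overlap (8.2% of all genes), and with quantile normalization 6 of 8 (7.19%). The members' median difference was 1.76 on the log2(FPKM + 1) scale, against 0.13 for all genes, so that genes in general lay a little higher in this group. As the members were chosen for lying high here, nothing is read from their count. All 8 passed the filter of a mean of 1 FPKM. Egr2 and Egr3 did so through the FDG-increased libraries alone.

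Among the NR4A receptors, Nr4a1 differed most. Nr4a1 stood at 51.6, 54.3 and 38.6 FPKM in libraries A, B and C, and at 1.85, 4.39 and 6.97 FPKM in sham replicates 1 to 3. Its mean was 10.9 times the sham mean, a log2 difference of 3.29 (SE 0.378). The lowest FDG-increased library was 5.55 times the highest sham library, a gap wider than the spread within either group.

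Nr4a3, the least abundant of the receptors in every library, stood at 4.32, 10.6 and 16.4 FPKM in A, B and C against 0.206, 1.71 and 1.90 FPKM in sham. Its log2 difference was 2.27 (SE 0.479). Nr4a2, a receptor best known from dopamine neurons, stood at 8.72, 11.2 and 26.2 FPKM in A, B and C against 2.28, 6.27 and 5.12 FPKM in sham, a log2 difference of 1.49 (SE 0.436). For Nr4a2 and Nr4a3 library C was the highest and A the lowest of these 3, whereas Nr4a1 was lowest in C. The lowest FDG-increased value of Nr4a2 was only 1.39 times the highest sham value.

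The EGR factors lay high in A and B and less so in C. Egr1, the most abundant of them, stood at 81.0, 93.5 and 37.1 FPKM in A, B and C and at 6.81, 10.5 and 12.4 FPKM in sham replicates 1 to 3. Its log2 difference was 2.65 (SE 0.395), and its mean was 7.13 times the sham mean. Egr2, known for its part in myelination and in T cell anergy, stood at 4.35, 4.23 and 2.12 FPKM against 0.499, 0.573 and 0.440 FPKM. Egr3, a close relative of Egr2, stood at 5.78, 5.55 and 2.13 FPKM against 0.108, 0.252 and 0.745 FPKM. Their log2 differences were 1.56 (SE 0.264) and 1.95 (SE 0.342), sizes that the added 1 FPKM holds down. On the plain FPKM scale the means of Egr2 and Egr3 were 7.07 and 12.2 times those of sham. Each of the 3 was at its lowest FDG-increased value in C, which was still 2.99, 3.70 and 2.85 times the highest sham value for Egr1, Egr2 and Egr3.

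Ier2, a small nuclear protein encoded by a short gene, was the most abundant member. It stood at 163, 124 and 51.5 FPKM in A, B and C against 40.6, 20.4 and 44.3 FPKM in sham, a log2 difference of 1.58 (SE 0.485). Library C lay only 1.16 times above the highest sham library. Srf, the factor that acts upstream of several of these genes, differed least. It stood at 25.4, 34.4 and 28.7 FPKM against 17.0, 12.1 and 20.8 FPKM, a log2 difference of 0.81 (SE 0.286).

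**Figure D1:**
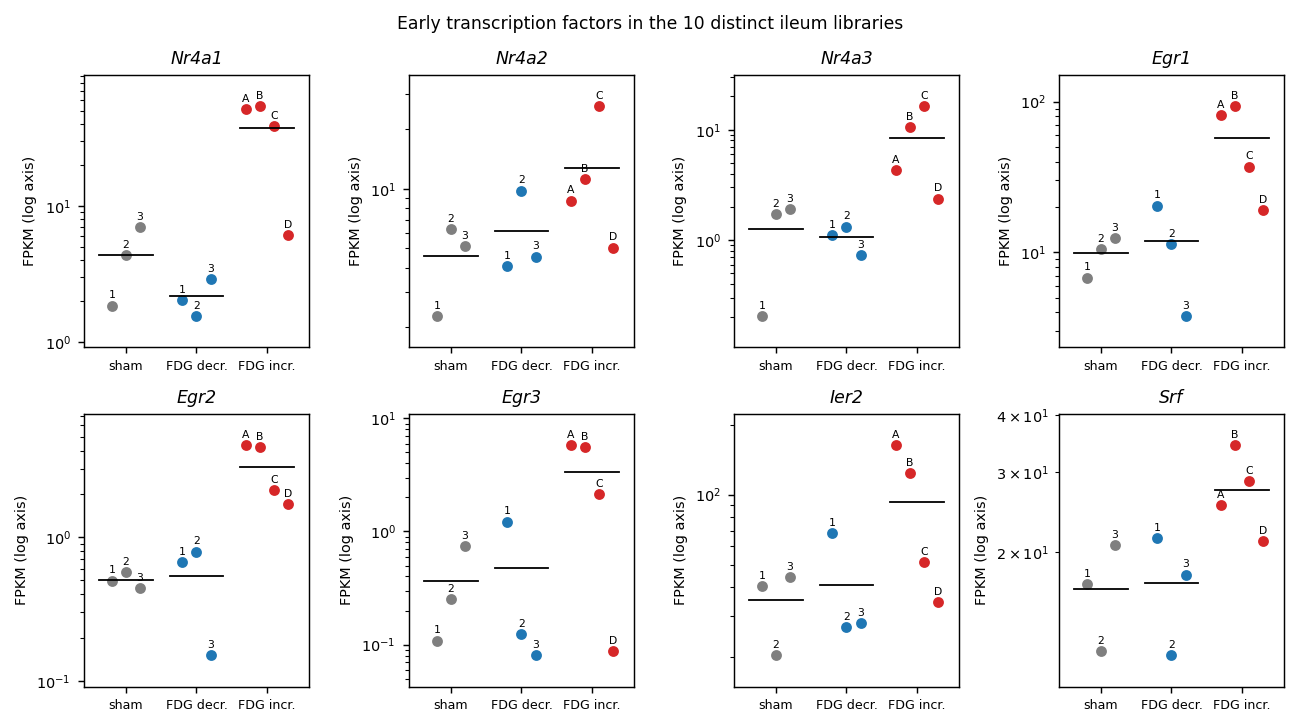
FPKM on log axes of each of the 8 genes in the 10 distinct libraries, RYGB table values rescaled to those of the sham table, with each point marked by its replicate number or library letter and a line at the group mean. Libraries A, B and C lie above every sham and FDG-decreased point for 6 of the 8 genes, and library D lies near the other groups for most.

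Calls depended on single libraries. By limma with Benjamini-Hochberg adjustment over all genes, 1 of 8 members, Nr4a1, passed 0.05, and 0.037% of all genes did. At an unadjusted p under 0.05 there were 8 of 8 members higher, and 6.15% of all genes. Over all genes that made 664 higher and 183 lower, against 528 and 368 with a common median and 479 and 333 with quantile normalization. The count of members by adjusted p was 0 without library A, without library B, without sham replicate 1 and without sham replicate 2. It was 4 without library C, namely Nr4a1, Egr1, Egr2 and Egr3, beside 13 of all 10774 genes tested there. It was 1 without sham replicate 3, beside 7 of all 10769 genes. Without sham replicate 1, the library low in ileal and high in proximal markers, the log2 difference was 2.89 for Nr4a1, 2.43 for Egr1 and 0.84 for Srf. That all 8 members lay above the remaining sham libraries follows from their lying above all of them. By the labels all sham libraries ran on sequencing lane 7 and FDG-increased libraries on lanes 4 and 7. The 1 FDG-increased library of lane 7 is A by the sham table's numbers and B by those of the RYGB table. Against sham, it gave a log2 difference of 3.41 or 3.48 for Nr4a1, 2.95 or 3.15 for Egr1, and 0.61 or 1.03 for Srf.

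Immune markers moved with the members between these groups. In libraries A, B and C the summed level of 10 T and NK cell markers was 119, 132 and 183 FPKM, against 86.8, 45.6 and 81.9 FPKM in sham replicates 1 to 3. For 9 macrophage markers it was 384, 265 and 345 FPKM against 199.6, 103 and 190.1 FPKM. Of these markers 9 of 10 and 8 of 9 were higher in FDG-increased ileum. By limma with Benjamini-Hochberg adjustment 0 of them passed, and 8 and 6 had an unadjusted p under 0.05, all higher. Of all 10801 genes tested 6987 were higher, and so were 6 of 6 intestinal epithelial and 4 of 4 mast cell markers tested. The neutrophil markers Csf3r, Cxcr2 and Mpo reached at most 0.421, 0.241 and 0.410 FPKM in any library. The other neutrophil markers listed, S100a8 and S100a9, were highest in library C, at 3.56 and 5.42 FPKM. Both had a higher mean in FDG-increased ileum, and the summed level of the 5 was 9.43 FPKM in C against at most 4.31 FPKM in the other libraries. All 3 ileal absorptive markers found were higher (median 2.85), with 1 at an unadjusted p under 0.05 by limma and 0 called. Of the 5 proximal markers 4 were lower in FDG-increased ileum (median -3.04), with 1 at an unadjusted p under 0.05 and 0 called. Their summed level was 4469, 5596 and 5978 FPKM in A, B and C against 14607, 2578 and 2540 FPKM in sham replicates 1 to 3. Only sham replicate 1 lay above A, B and C, so the fall in this sum rests on that library. Adipocyte markers also lay the other way, with 6 of 6 lower and a summed 69.5, 104 and 109 FPKM in A, B and C against 67.8, 489 and 161 FPKM in sham replicates 1 to 3. The part of these cell types in the levels of the members was not tested.

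Within RYGB ileum all 8 members were higher with FDG increased in each of the 3 same-numbered pairs of libraries. Of all 10739 genes tested, 12.7% were higher in all 3 pairs. The pairs follow the replicate numbers of the RYGB table. By the labels both samples numbered 1 ran on lane 7 and both numbered 2 on lane 4, while those numbered 3 ran on lane 5 (FDG decreased) and lane 4. For the numbers 1 and 2, lane and pair cannot be told apart. This comparison shares libraries B and C with the one against sham, so the results are not independent of each other. Only 3 members, Nr4a1, Nr4a3 and Egr2, had groups that did not overlap, and 1.26% of all genes were higher with FDG increased without overlap. With a common median the count was 5 (1.62% of all genes) and with quantile normalization 4 (1.84%). It was 7 without library D and 6 without FDG-decreased replicate 1. Groups of fewer libraries separate more easily, and the share of all genes was not computed for those fits. Nothing is read from the rise.

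Nr4a1 stood at 53.1, 37.9 and 5.99 FPKM in libraries B, C and D of the RYGB table. In FDG-decreased replicates 1 to 3 it stood at 2.01, 1.53 and 2.86 FPKM. The ratio within pairs was thus 26.4, 24.8 and 2.10. The first pairs differed strongly and the third little, which gave a log2 difference of 2.99 with a wide error (SE 0.712, and 0.963 with the pair as a block).

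Nr4a3 likewise had its lowest ratio in the third pair. It stood at 10.4, 16.1 and 2.33 FPKM against 1.09, 1.30 and 0.722 FPKM, with ratios of 9.49, 12.4 and 3.22. Nr4a2 stood at 10.99, 25.7 and 4.94 FPKM against 3.99, 9.60 and 4.46 FPKM, with ratios of 2.75, 2.67 and 1.11. For Nr4a2 the FDG-decreased library of the second pair, at 9.60 FPKM, lay above library D, so only the comparison within pairs put all FDG-increased values higher.

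Egr1 had the most even ratios among the NR4A and EGR genes. It stood at 91.4, 36.3 and 18.7 FPKM in B, C and D and at 19.97, 11.2 and 3.71 FPKM in their FDG-decreased partners. The ratios were 4.58, 3.25 and 5.04. With the pair as a block its log2 difference was 1.94 (SE 0.154), while without it the SE was 0.698. Egr1 varied 5.39-fold among the FDG-decreased libraries and from 18.7 to 91.4 FPKM among the FDG-increased ones. Egr2 stood at 4.13, 2.08 and 1.66 FPKM against 0.655, 0.778 and 0.148 FPKM, with ratios of 6.31, 2.67 and 11.2. By the ratio of FPKM, the third pair, where Nr4a1 differed least, was the pair where Egr1 and Egr2 differed most. On the log2(FPKM + 1) scale both differed most in the first pair. The Egr2 ratio of the third pair rests on a value of 0.148 FPKM and carries little weight.

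Egr3 parted from its relatives in that pair. It stood at 5.42, 2.08 and 0.0858 FPKM against 1.20, 0.121 and 0.0787 FPKM, with ratios of 4.53, 17.2 and 1.09. Both values of the third pair are so low that their ratio carries little weight. Ier2 stood at 121, 50.4 and 33.7 FPKM against 66.7, 26.3 and 27.5 FPKM, and Srf at 33.6, 28.1 and 20.8 FPKM against 21.1, 11.6 and 17.5 FPKM. Their ratios within pairs lay between 1.23 and 1.92 for Ier2 and between 1.19 and 2.42 for Srf. For both genes the FDG-decreased library of the first pair lay above library D, so the groups overlapped. Of the 8 members 6 had their lowest ratio in the third pair.

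**Figure D2:**
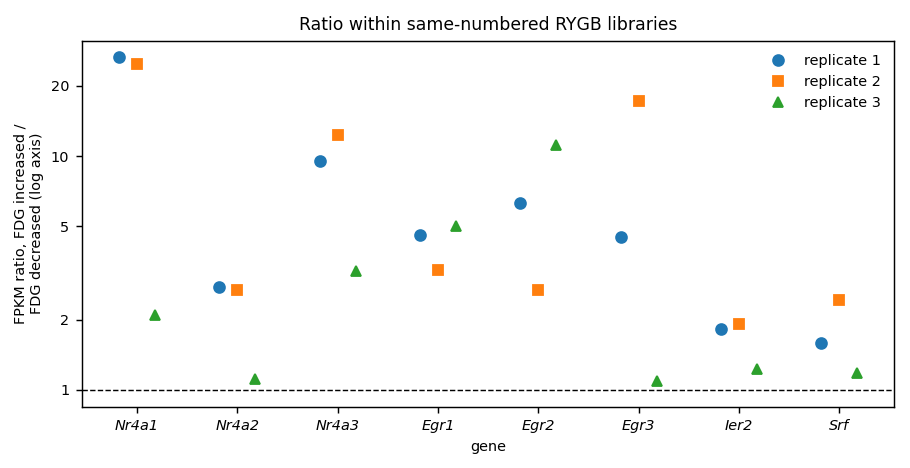
Ratio of FPKM in the FDG-increased to the FDG-decreased library of the same replicate number in the RYGB table, on a log axis with a dashed line at 1, for each gene. All ratios lie above 1, and the third pair is lowest for 6 of the 8 genes, with Egr1 and Egr2 as the exceptions.

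Limma with Benjamini-Hochberg adjustment called 0 of the 8 members without the block (0% of all genes). At an unadjusted p under 0.05 there were 4 members higher, and 0.661% of all genes. With the block it called 2, Egr1 and Egr2, beside 1.14% of all genes. Since the choice of members used this contrast, nothing is read from these counts. The members' median difference was 1.11 on the log2 scale, against -0.02 for all genes. Summed T and NK cell markers, on the sham scale, were 132, 183 and 22.7 FPKM in B, C and D and 152, 169 and 30.9 FPKM in their partners, and 4 of the 10 markers were higher with FDG increased, with 0 at an unadjusted p under 0.05 by limma. Summed macrophage markers were 265, 345 and 47.0 FPKM against 240, 184 and 62.9 FPKM. Both libraries of the third pair were the lowest of the 10 in T and NK cell markers and in macrophage markers. They were the highest in smooth muscle markers, at a summed 2299 FPKM in D and 1863 FPKM in its partner, against at most 1622 FPKM elsewhere. The part of these markers' cell types in the low ratios of that pair was not tested. Proximal intestine markers lay the other way between the groups. All 5 were lower with FDG increased (median -1.80), 4 without overlap and 4 at an unadjusted p under 0.05. Of all 10739 genes tested, 1.95% were lower without overlap, and 39 were lower at an unadjusted p under 0.05. Limma with Benjamini-Hochberg adjustment called 0 of the 5 markers without the block. With the block limma called Lct (adjusted p = 0.0190) and Gip (adjusted p = 0.000318), beside 48 of all genes called lower. Their summed level was 5596, 5978 and 1822 FPKM in B, C and D and 9320, 7065 and 5014 FPKM in their partners, on the sham scale. By ratio this sum fell most in the third pair, where 6 of the 8 members had their lowest ratio. How far the position along the intestine bears on the members was not tested.

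FDG-decreased and sham ileum are in no common table. Multiplied by the factor seen in the shared libraries (1.02), FDG-decreased values could be set beside sham. The libraries of both groups overlapped for 8 of 8 members. The FDG-decreased mean was 2.18 ± 0.690 FPKM for Nr4a1 against 4.40 ± 2.56 FPKM in sham ileum (SD, n = 3 each). For Egr1 it was 11.9 ± 8.32 FPKM against 9.89 ± 2.84 FPKM, and for Srf 17.1 ± 4.87 FPKM against 16.6 ± 4.32 FPKM (SD, n = 3 each). In the other members the FDG-decreased mean was between 0.832 and 1.35 times the sham mean, within the spread of the libraries. No test was run across the tables.

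Library D, which did not enter the comparison with sham, lay below A, B and C for every member. It also stood apart in immune and smooth muscle markers, as given above, and the part of this in its levels was not tested. On the sham scale library D exceeded every sham library for 4 members: Nr4a3 at 2.38, Egr1 at 19.1, Egr2 at 1.69 and Srf at 21.2 FPKM. The highest sham values of these genes were 1.90, 12.4, 0.573 and 20.8 FPKM. For Nr4a1, Nr4a2 and Ier2 it stood at 6.12, 5.05 and 34.4 FPKM, inside the sham range. For Egr3 it stood at 0.0877 FPKM, below the lowest sham value of 0.108 FPKM, both of them very low. With D included, the FDG-increased group of 4 libraries averaged 37.7 ± 22.1 FPKM for Nr4a1 and 57.7 ± 35.3 FPKM for Egr1 (SD, n = 4 each). The order of the group levels was FDG-increased, sham, FDG-decreased for Nr4a1 and Nr4a3, and FDG-increased, FDG-decreased, sham for the other members. The lower neighbours in that order did not differ beyond their spread for any member.

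The families differed in how their members were divided. Egr1 made up between 88.9% and 94.2% of the summed EGR FPKM in all 10 libraries, although that sum ran from 4.02 to 103 FPKM. The make-up of the NR4A sum varied more. Nr4a1 was 12.3% to 35.6% of it in FDG-decreased ileum, 35.5% to 49.8% in sham ileum, and 45.2% to 79.8% in the 4 FDG-increased libraries. The ranges of neighbouring groups overlapped. Nr4a2 led in all 3 FDG-decreased libraries, with 55.4% to 77.3%, and in sham replicates 1 and 2, with 52.5% and 50.7%. Nr4a1 led in sham replicate 3 and in all 4 FDG-increased libraries. Library D had an NR4A sum of 13.5 FPKM, where sham sums reached 14.0 FPKM, and a share of 45.2% Nr4a1.

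**Figure D3:**
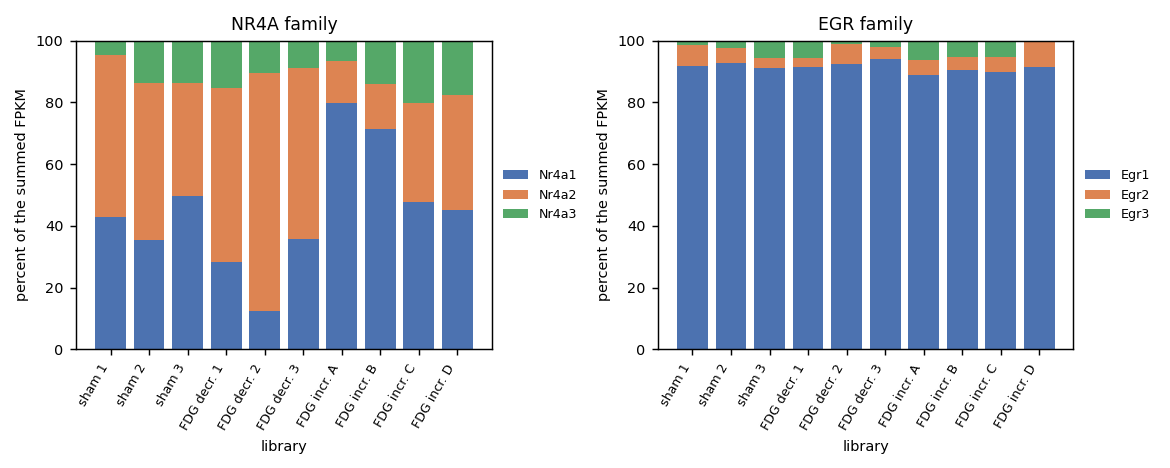
Stacked bars of each member's percent of the summed FPKM of its family, NR4A on the left and EGR on the right, in the 10 distinct libraries. The EGR bars are alike, with Egr1 at 88.9% or more, while Nr4a1 takes 45.2% or more of the NR4A sum in every FDG-increased library and at most 35.6% in the FDG-decreased ones.

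The libraries did not rank alike for all members. Library A was highest of the 10 for Egr2, Egr3 and Ier2, library B for Nr4a1, Egr1 and Srf, and library C for Nr4a2 and Nr4a3. Library C exceeded B in Nr4a2, at 26.2 against 11.2 FPKM, but not in Egr1, at 37.1 against 93.5 FPKM. Crem, a gene with a short inducible repressor form made in response to cyclic AMP, likewise stood highest in C, at 25.8 FPKM against 5.67 and 6.64 FPKM in A and B.

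Relatives and partners of the members gave few differences. Of the 10 listed, 7 reached the level filter, and Egr4 was listed at 0 in every library. Wt1, a zinc finger factor whose sites resemble those of EGR, and Rxrg reached at most 0.573 and 0.499 FPKM. Nab1 and Nab2, the EGR corepressors, differed from sham by 0.25 (SE 0.332) and 0.26 (SE 0.257) on the log2 scale. Within RYGB ileum they differed by 0.34 (SE 0.348) and 0.11 (SE 0.295). Rxra and Rxrb, partners of Nr4a1 and Nr4a2 on DNA, differed by 0.22 and -0.10 against sham and by 0.04 and -0.02 within RYGB ileum. Ier3, an early gene that modulates survival signalling, stood at 45.8 ± 1.91 FPKM against 16.9 ± 6.20 FPKM in sham (SD, n = 3 each), a log2 difference of 1.45 (SE 0.315). Ier5 differed by 1.29 (SE 0.519) and Ier5l by -0.39 (SE 0.471).

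Of these 7 genes limma with Benjamini-Hochberg adjustment called 0 in either comparison without the block, with 2 against sham and 0 within RYGB ileum at an unadjusted p under 0.05. With the pair as a block Ier3 was higher in FDG-increased ileum than in FDG-decreased ileum by 0.90 (SE 0.174, limma adjusted p = 0.0396). That difference came from values of 36.3 ± 15.6 FPKM against 17.9 ± 4.70 FPKM (SD, n = 3 each). Ier5 and Ier5l differed within RYGB ileum by 0.65 (SE 0.581) and -0.06 (SE 0.419).

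Srf cofactors lay level or lower. Of 6 listed, 4 were found and tested, the ternary complex factors Elk1, Elk3 and Elk4, which ERK phosphorylates, and Myocd, the cofactor of smooth and heart muscle. Against sham they differed by -0.20, -0.04, -0.18 and -0.77, in that order, and within RYGB ileum by -0.07, -0.18, -0.11 and -0.05. Of the 4, limma with Benjamini-Hochberg adjustment called 0 in either comparison, and Myocd against sham alone had an unadjusted p under 0.05. Myocd stood at 1.40 ± 0.177 FPKM against 3.40 ± 1.99 FPKM in sham ileum (SD, n = 3 each).

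**Figure D4:**
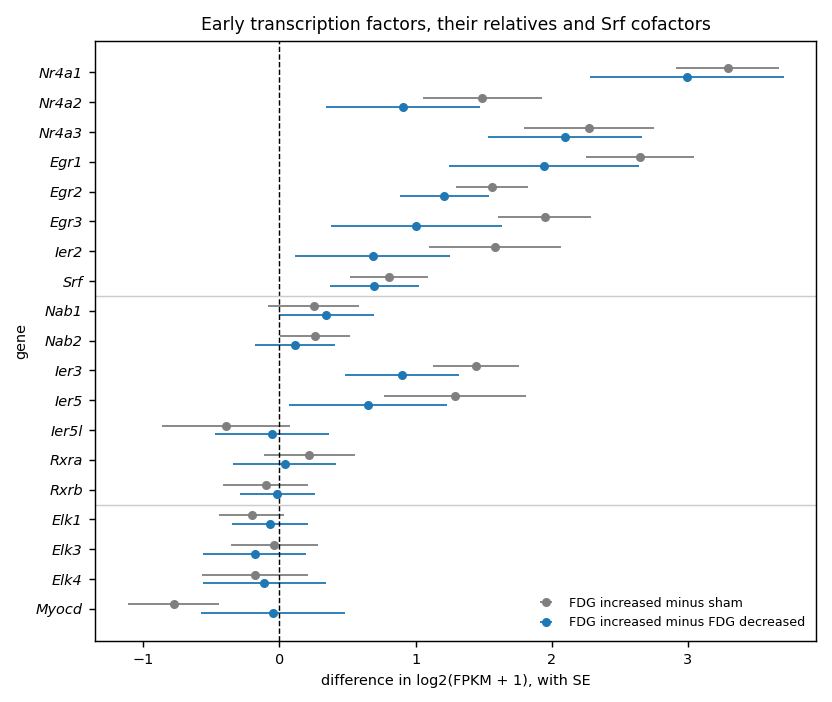
Differences in log2(FPKM + 1) with their standard errors, FDG-increased minus sham in grey and FDG-increased minus FDG-decreased in blue, for the 8 genes, 7 relatives and partners and 4 Srf cofactors, 3 libraries per group. The 8 genes, Ier3 and Ier5 lie to the right of 0 in both comparisons, and so, by less, do Nab1, Nab2 and Rxra. The Srf cofactors lie at or left of 0.

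The ERK pathway, which links growth factor receptors to Elk factors, had 15 genes tested, with medians of 0.08 against sham and 0.01 within RYGB ileum. In this pathway limma with Benjamini-Hochberg adjustment called 0 genes in both comparisons, and 0 had an unadjusted p under 0.05. Hras, a small GTPase at the head of the pathway, differed from sham by 0.36 (SE 0.262). Within RYGB ileum Rps6ka3, a kinase that ERK activates, differed by 0.15 (SE 0.503).

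Of 12 cytoskeletal genes that Srf drives in most cells, 8 were higher against sham (median 0.31) and 12 within RYGB ileum (median 0.20). Of all genes tested, 6987 of 10801 were higher against sham and 4811 of 10739 within RYGB ileum, so 8 of 12 is near the background share. Limma with Benjamini-Hochberg adjustment called 0 in either, with 0 at an unadjusted p under 0.05. Actg1, the cytoplasmic gamma actin, stood at 1703 ± 153 FPKM against 1129 ± 135 FPKM in sham ileum (SD, n = 3 each). Tpm4, a tropomyosin, differed from sham by 0.72 (SE 0.375). Within RYGB ileum Actg1 differed by 0.49 (SE 0.338) and Fhl2, a LIM domain protein, by 0.44 (SE 0.317). The 11 smooth muscle markers, which Srf also drives, had medians of 0.04 and 0.16.

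In the CREB pathway 9 of 11 genes tested were higher against sham (median 0.37) and 8 within RYGB ileum (median 0.10), beside those same shares of all genes. Limma with Benjamini-Hochberg adjustment called 0 of them in either comparison without the block, and 3 and 2 had an unadjusted p under 0.05. The largest differences were those of target genes of CREB. Sik1, a kinase that shuts off CREB coactivators, stood at 27.2 ± 3.28 FPKM against 6.55 ± 2.02 FPKM in sham ileum (SD, n = 3 each), a log2 difference of 1.93 (SE 0.274). Within RYGB ileum it differed by 1.64 (SE 0.560). Crem differed by 1.27 (SE 0.513) against sham, and within RYGB ileum it was higher by 1.38 with the pair as a block (SE 0.182, limma adjusted p = 0.00555).

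Other immediate-early genes were listed as well, several of which had been seen to be high in these libraries. Of 36 tested against sham, 29 were higher, with a median of 1.04 against 0.13 for all genes. Limma with Benjamini-Hochberg adjustment called 2 higher and 0 lower, Atf3 and Fosb. Without library A, library B or sham replicate 2 limma called 0 of all genes, and without sham replicate 1 it called 0 higher and 1 lower, so neither Atf3 nor Fosb passed there. Within RYGB ileum 32 of 34 were higher, with a median of 0.88 against -0.02. There limma called 0 without the block (10 at an unadjusted p under 0.05) and 15 with it, all higher, beside 0.689% of all genes called higher. Those 15 included Trib1, a pseudokinase, at 60.1 ± 24.6 FPKM against 16.5 ± 4.82 FPKM (SD, n = 3 each), and the RNA-binding decay factor Zfp36, at 159 ± 59.1 FPKM against 80.1 ± 36.8 FPKM (SD, n = 3 each). Trib1 and Zfp36 were named after their values were seen.

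Likeness of pattern was measured as the root mean square difference of log2(FPKM + 1) over the 10 libraries, on the sham scale, after each gene was centred on its own mean. Among 10651 genes, those very like Nr4a1 included Fosb (0.71), Ch25h (0.75), Atf3 (0.76) and Sik1 (0.80). The median over all genes was 1.73. Egr1 and Nr4a3 came at places 6 and 7, but Nr4a2 only at place 60. The genes most like Egr1 were Dusp1 (0.52), Hspb1 (0.55), Ppp1r15a (0.55), Egr3 (0.55) and Sik1 (0.58), with Egr2 at place 6 and a median over all genes of 1.37. Those most like Srf, which varied little, were Phf23 (0.20), Tp53rk (0.20), Bmp2 (0.22), Itpkc (0.22) and Dda1 (0.23), none of them a member, with a median over all genes of 0.59. The libraries of a pair deviated together, so the 10 points are not independent.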

How the data were processed

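The submitters' processing notes list, with no order or role known here, DESeq2 1.24.0, Cuffdiff, Cufflinks 2.2.1, STAR 2.6.0a and bcl2fastq 1.8.4. These notes name hg19, a human build, although the symbols are those of rat. The authors deposited FPKM per gene in 2 tables of 6 library columns, each with its own scaling. Columns of samples left unused numbered 0. Low values gathered at no common step between libraries, so read depth is unknown. Libraries were matched between tables by ratios within 1% of their median. Symbols that a spreadsheet had made into dates, 25, were left out.

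Within a table, genes averaging 1 FPKM or more were compared on log2(FPKM + 1). The test was that of limma 3.58.1 (R 4.3.3), moderated with a trend in level and robust variances, with Benjamini-Hochberg adjustment at 0.05, two-sided. The procedure was tested on simulated data. That simulation used independent noise smaller than the observed spread and no pairs, an easier setting than these libraries. The RYGB table was fitted without and with the pair as a block, because libraries of one number shared their deviations (correlations across genes of 0.85, 0.76 and 0.77, against -0.59 to -0.13 between other numbers). The labels name no shared animal or day for a number. Samples numbered 1, and likewise 2, shared a lane. The sham table's numbers differ from those of the RYGB table. Alternatives were other pseudocounts, no filter, other scalings, the block, lane 7 alone and leaving out each library.

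The members and gene lists were chosen with earlier results of these data known. Of 194 listed symbols 180 were found as such and 3 by a synonym. The named genes were the members, their relatives and partners and the Srf cofactors. From each other list came genes past the threshold and the 2 with the largest difference in each comparison, of which the main ones are given. The 5 genes most like each of Nr4a1, Egr1 and Srf were added. Some genes that this rule names are not reported here.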

Additional observations from a re-analysis of the deposited data

How the results depend on the processing

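Over all alternatives and both comparisons, 239 differences of members were computed, and 239 kept the direction of the reported value, 228 of them within 1 SD of it. Groups without overlap fix that direction in many fits. Without FDG-increased replicate 1 of the RYGB table Egr3 fell below the level filter and has no value. Against sham, limma called 4 genes and 1 member. With a pseudocount of 0.1 it called 1 and 0, with no filter on low values 0 and 0, with libraries shifted to a common median 1 and 0, and with quantile normalization 0 and 0. Lane 7 libraries alone gave 0 and 0 by the sham table's numbers and 3 and 0 by those of the RYGB table; that fit takes the lone FDG-increased library to vary like sham. With the replicate number as a block it called 39 genes and 5 members, though same-numbered libraries there correlated at 0.35, -0.50 and -0.25, so the numbers are not taken to pair samples. Leaving out 1 library gave 0 to 13 genes and 0 to 4 members. Within RYGB ileum 0 genes and 0 members were called. The replicate block gave 122 and 2, and with quantile normalization as well, chosen after seeing the data, 90 and 3. Leaving out 1 library gave 0 to 1 genes. Members higher without overlap numbered 3, with a common median 5, without the third pair 7 (chosen after seeing the data), and 3 to 7 with 1 library left out. With libraries left out, groups separate more easily and no share of all genes was computed, so those counts are not compared. Unknown depth limits the low values of Egr2, Egr3 and Nr4a3, whose differences, like that of Nr4a1, moved with the pseudocount.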
